A study of Oryza sativa with 10 samples.

Results

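A group of 66 genes was taken from the rice seedling transcriptome: genes of chromosome 1 whose transcript level moved little at each of 2 steps of light treatment and was higher after a spray of indole-3-acetic acid (IAA), the main natural auxin. Transcript levels were deposited as FPKM, fragments scaled by the length of the gene and by the size of the library, and a level on the log2 scale is log2(mean FPKM + 1) of the 2 libraries of a condition. A gene was a member if its level changed by less than 0.5 between 0 and 8 h of light and again between 8 and 24 h, and was at least 0.5 higher with IAA than at 24 h. The members were thus chosen on the 0 h, 8 h, 24 h and IAA values, which are given here as a description. Calls for IAA against 24 h or against ABA are descriptions as well, since the rule fixed them in part. Of 2282 complete gene rows, which end at or before position 21262392 of chromosome 1, 1092 had a mean of at least 1 FPKM over all libraries and were tested, and 66 of these met the rule. All 66 members therefore passed the filter on low values by construction. In 3 of them, LOC_Os01g03080, LOC_Os01g04620 and LOC_Os01g20950, the mean was under 1 FPKM without the IAA libraries (0.814, 0.925 and 0.974 FPKM), so they passed through the condition that the rule requires to be high.

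Seedlings of the indica cultivar YD6 were germinated in the dark for 3 d and moved to light, and RNA-seq was performed with 2 biological replicates in each of 5 conditions, which gives 10 libraries. The conditions were the dark (0 h), 8 h of light, 24 h of light, and 24 h of light with 100 μM IAA or 100 μM abscisic acid (ABA) sprayed for the last 30 min. Both hormones were dissolved in 1% DMSO. A spray of 1% DMSO alone is also part of the protocol, but the sources used here do not say if the 24 h libraries were given it, so hormone, solvent and spraying cannot be told apart. Each library was made from seedlings, with no tissue within the seedling named, and fewer cells of a type and less RNA per cell cannot be told apart. With 2 replicates, the p-values measure the spread between these libraries. The sequencing depth is unknown.

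Auxin is perceived in the nucleus by TIR1/AFB receptors, which direct Aux/IAA repressors to degradation and so free auxin response factors to act on their targets within minutes. ABA, the hormone of drought and seed dormancy, is bound by PYR/PYL receptors, which block type 2C protein phosphatases and so release SnRK2 kinases that act on bZIP transcription factors. Light triggers photomorphogenesis, the opening and greening of a dark-grown seedling, and the bZIP factor HY5 is a main promoter of this switch in Arabidopsis. The study names OsbZIP1, OsbZIP18 and OsbZIP48 as rice homologs of HY5, and OsbZIP1 is a member. The study reports a positive response to light for OsbZIP18 and OsbZIP48 and no significant change for OsbZIP1. OsbZIP1 is the only member for which the sources used here give a name. The others are called by their MSU locus IDs and no function is given for them.

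Of the 1092 genes tested, 587 were steady at both light steps, and 66 of these 587 were at least 0.5 higher with IAA (11.2%). Among the 505 genes that were not steady, 138 had such a difference (27.3%). Another 9 of the steady genes were at least 0.5 lower with IAA. The members had a median level of 8.73 FPKM over all libraries, with a range from 1.08 to 155 FPKM, close to the median of 9.58 FPKM of all genes tested. LOC_Os01g13210 was the most abundant member, with 161.6 and 156.6 FPKM at 0 h, 168.2 and 164.6 FPKM at 8 h, 135.4 and 116.4 FPKM at 24 h, 138.2 and 140.03 FPKM with ABA and 188.8 and 181.9 FPKM with IAA. Its IAA libraries were the highest of the 10 and its 24 h libraries the lowest, a span that is small beside its level.

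**Figure D1:**
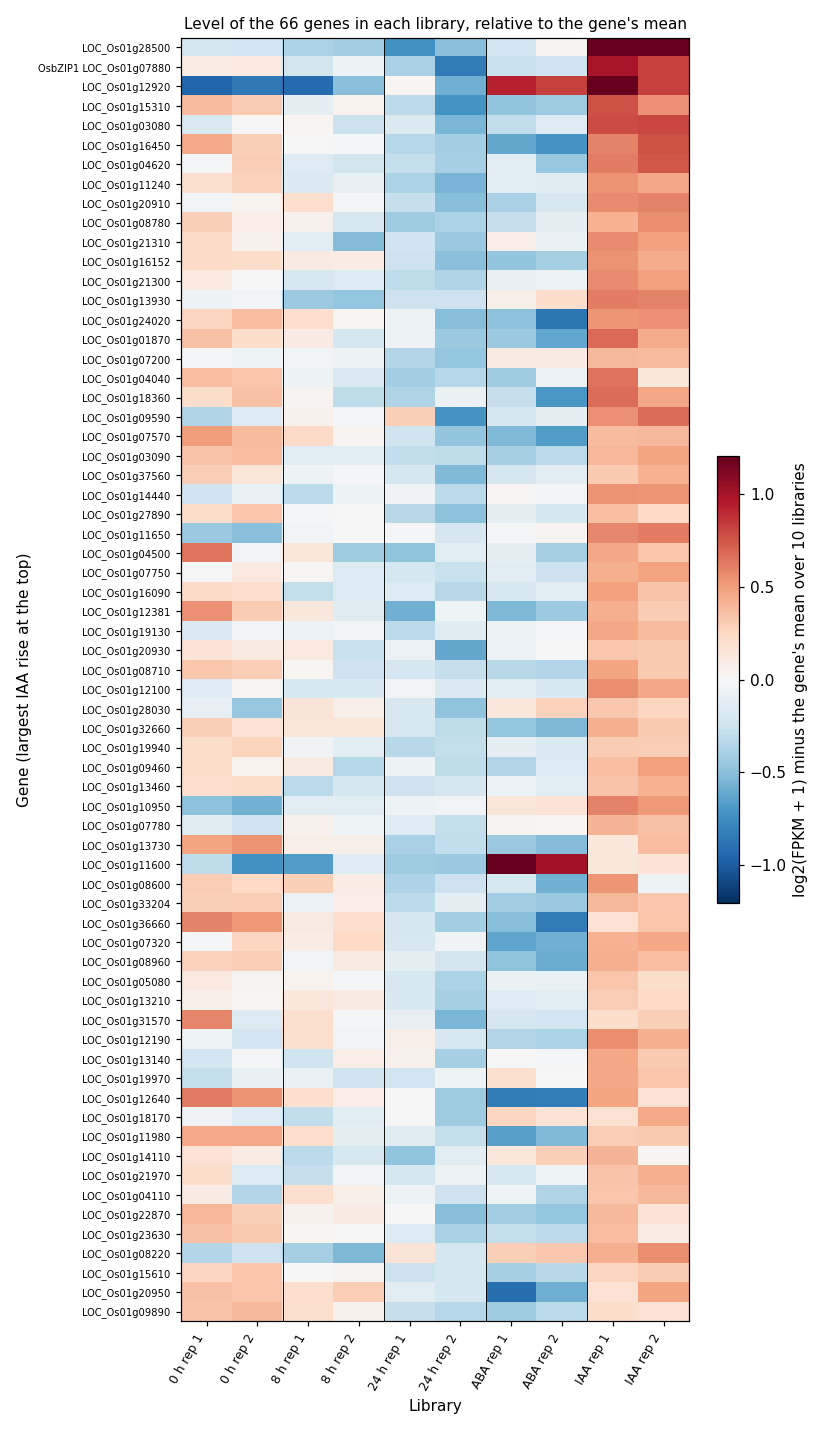
Level of each of the 66 members in each of the 10 libraries, as log2(FPKM + 1) minus the gene's mean over the libraries, with genes ordered by the size of the IAA rise and colours that saturate at the ends of the scale. Both IAA libraries are the highest in 44 members, and in LOC_Os01g11600, LOC_Os01g12920 and a few others the ABA libraries are high as well.

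On the values as deposited, the members had lower levels at the later time points, within the limits of the rule. From 0 to 8 h the median change of the members was -0.23 on the log2 scale, and from 8 to 24 h it was again -0.23. Over all genes tested these medians were -0.18 and -0.17, so the members and the rest of the table moved the same way. After rescaling the libraries by median-of-ratios, which sets the typical gene to no change, the members' medians were -0.04 and -0.07. Those of all genes tested were then 0.02 and -0.01, so the size of these falls depended on the scaling. The level was lower after each step in 44 members, higher after each in 3, higher and then lower in 12, and lower and then higher in 7. The rule limits each step and not their sum. As deposited, 29 members were at least 0.5 lower at 24 h than in the dark. Another 36 lay within 0.5 and 1 was at least 0.5 higher. The shares over all genes tested and the counts after rescaling were not made. As deposited, the median change from 0 to 24 h was -0.47 in the members and -0.38 over all genes tested. Nothing particular to the members is read from the 29. The largest difference between 0 and 24 h was that of LOC_Os01g36660, whose level was 0.86 lower at 24 h on the log2 scale. It had 6.42 and 6.02 FPKM at 0 h, 4.29 and 4.64 FPKM at 8 h and 3.27 and 2.69 FPKM at 24 h, so that no library of a later time reached those of an earlier one. The member that was higher was LOC_Os01g12920, which is described with the ABA results.

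The IAA rise that defined the members had a median of 0.62 on the log2 scale and reached 1.94. Over all genes tested the median was 0.14. After rescaling these medians were 0.49 for the members and -0.01 for all genes tested. As a ratio of mean FPKM, the members were between 1.44 and 4.12 times as high with IAA as at 24 h, with a median of 1.70 times. The level with IAA was above that at 8 h by a median of 0.48, and the limits of the rule fix this direction for every member. In 44 of the 66 members both IAA libraries lay above the other 8 libraries, which held for 11.5% of all genes tested. IAA was the condition with the highest mean in 52 members, the dark in 13 and ABA in 1, and the lowest mean was at 24 h in 27, with ABA in 26, at 8 h in 7 and at 0 h in 6. A rise of at least 2-fold and a limma adjusted p under 0.01 were found for 7 members (background 4.67%), and an adjusted p under 0.05 for 66 (background 38.1%). The rule used the same contrast and so largely fixed these last counts, and the 44 members above have the same origin. Nothing is read from any of these counts.

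LOC_Os01g28500, a gene on the minus strand at chr1:15958735-15959500, had the largest IAA rise. It had 19.5 and 19.1 FPKM at 0 h, 17.1 and 16.7 FPKM at 8 h and 13.3 and 15.7 FPKM at 24 h. With IAA it had 58.4 and 57.9 FPKM, 4.02 times the mean at 24 h, and with ABA 19.2 and 23.1 FPKM. The IAA libraries stood far above all others and differed little from each other, and the ABA libraries lay near the dark level. Relative to the dark, its level with IAA was 1.54 higher on the log2 scale.

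OsbZIP1 (LOC_Os01g07880, minus strand, chr1:3811149-3812069) ranked next by the size of the rise. Its level was 5.58 and 5.70 FPKM at 0 h, 4.31 and 4.93 FPKM at 8 h, and 3.71 and 2.45 FPKM at 24 h. With IAA it was 11.3 and 9.91 FPKM, and with ABA 4.12 and 4.24 FPKM. The libraries were thus lower in order from the dark to 24 h with no overlap between the time points, and the IAA libraries lay above every other, including those of the dark. The change was -0.24 from 0 to 8 h, -0.46 from 8 to 24 h and 1.51 from 24 h to IAA. OsbZIP1 thus entered the group with its later light step near the limit. After rescaling of the libraries its light steps were -0.05 and -0.31. It was among the members that did not meet the rule in every case when single libraries were left out, and it met the rule after rescaling of the libraries.

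Further members with large rises were expressed at very different levels. LOC_Os01g15310 (minus strand, chr1:8570841-8574555) had 15.9 and 11.8 FPKM at 24 h and 34.7 and 29.8 FPKM with IAA, and LOC_Os01g16450 had 8.04 and 7.59 FPKM and 16.2 and 18.4 FPKM. Both had been higher in the dark, with 26.3 and 24.9 FPKM and with 14.6 and 12.9 FPKM at 0 h. As deposited, both were within 0.5 of the dark level with IAA on the log2 scale (0.32 and 0.31 above it). LOC_Os01g11240, near the upper end of expression, had 49.9 and 52.7 FPKM at 0 h, 33.2 and 29.2 FPKM at 24 h and 63.6 and 60.5 FPKM with IAA, a level difference of 0.97 from 24 h to IAA. Near the lower end of expression, LOC_Os01g03080 had 0.84 and 0.41 FPKM at 24 h and 2.55 and 2.61 FPKM with IAA, and LOC_Os01g04620 had 0.758 and 0.622 FPKM and 2.29 and 2.59 FPKM. Their ratios of 4.12 and 3.54 times became differences of 1.14 and 1.03 on the log2(FPKM + 1) scale, on which the change of a gene with low values comes out too small. LOC_Os01g20910 and LOC_Os01g08780, at means of 1.70 and 1.87 FPKM, completed the 10 largest rises with 0.96 and 0.89.

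**Figure D2:**
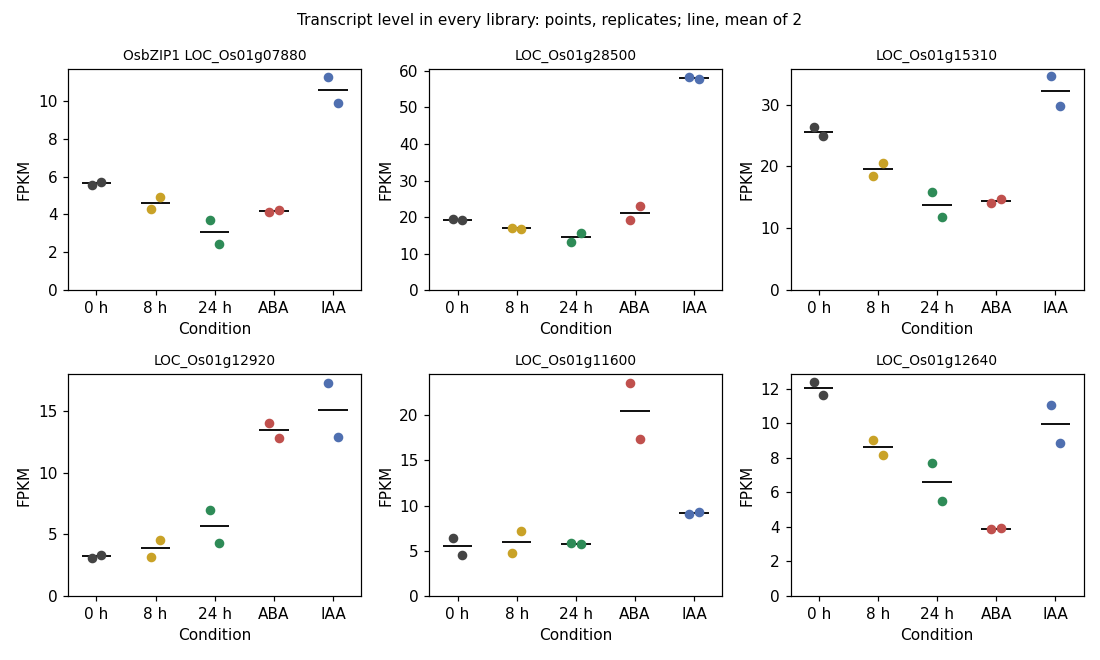
FPKM in every library (points) and the mean of the 2 replicates (lines) for 6 members in the 5 conditions, each panel with its own axis from 0. OsbZIP1, LOC_Os01g28500 and LOC_Os01g15310 are highest with IAA, LOC_Os01g12920 is high with both hormones, LOC_Os01g11600 is highest with ABA, and LOC_Os01g12640 is lowest with ABA.

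Compared with the dark, the level with IAA ran from -0.30 to 1.94 on the log2 scale, and the members were divided at 0.5. The limits of the rule leave no member 0.5 or more below the dark with IAA. As deposited, the median was 0.29 in the members and -0.20 over all genes tested. Median-of-ratios rescaling divides the 0 h libraries by 1.24 and 1.22 and the IAA libraries by 1.04 and 1.04. It thus raises the members' levels with IAA relative to the dark, so the division depends on the scaling. The counts and medians that follow hold for the values as deposited and were not made after rescaling. In 20 members the level with IAA was at least 0.5 above 0 h, and in the other 46 it lay within 0.5, of which 13 were below the dark level. In the 20 members the median change from 0 to 24 h was -0.03, whereas in the 46 it was -0.55, and 28 of the 46 were at least 0.5 lower at 24 h than at 0 h. The IAA rise had a median of 0.68 in the 20 and 0.61 in the 46. These sets were formed from the values that chose the members and are a description. With ABA, whose libraries entered the rule only through the mean over all libraries, the median difference from 24 h was 0.20 for the 20 members and -0.05 for the 46.

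**Figure D3:**
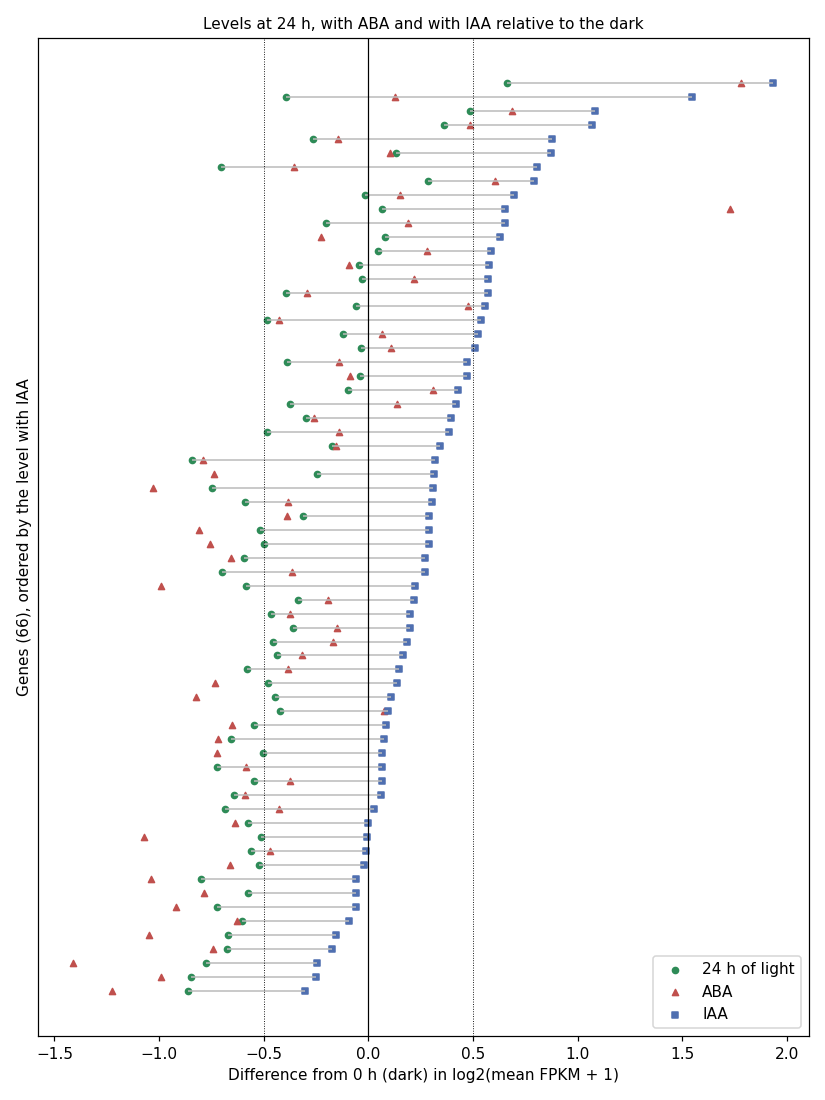
Difference of each member from its 0 h level in log2(mean FPKM + 1), at 24 h of light (circles), with ABA (triangles) and with IAA (squares), 1 line per gene ordered by the level with IAA. As deposited, the squares lie at or beyond 0.5 above the dark in 20 members, and the circles lie below the dark level in 58. Over all genes tested the median difference of 24 h from 0 h was -0.38.

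The comparison of ABA with 24 h asks whether genes that were higher after the IAA spray also moved after the ABA spray. The ABA libraries entered the rule only through the mean level over all libraries. The 24 h libraries set the limits of the rule, so this contrast shares them with the choice of members. The rule favours genes with low 24 h values, which by itself can move ABA minus 24 h upward in the members. The median change of the members with ABA was 0.07 on the log2 scale (range -0.63 to 1.66), and that of all genes tested was -0.11. The members were higher in 38 cases and lower in 28, and 59 of the 66 lay within 0.5 of the 24 h level. Rescaling the libraries by median-of-ratios, which sets the typical gene to no change, moved the median of all genes tested from -0.11 to 0.01 and that of the members to 0.18. In the limma fit the members' median lay 0.18 above that of all genes tested with either scaling.

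By the stricter call, a 2-fold change on the log2(FPKM + 1) scale with a limma adjusted p under 0.01, 2 members were higher with ABA than at 24 h (background 1.65%) and 0 were lower (background 0.366%), while 22 (33.3%, background 15.5%) and 13 (19.7%, background 32.2%) had an unadjusted p under 0.05 in those directions. With a limma adjusted p under 0.05 alone, 15 members rose (22.7%, background 12.5%) and 8 fell (12.1%, background 26.6%). Both ABA libraries lay above both 24 h libraries in 27 members (40.9%, background 21.1%), and both 24 h libraries lay above both ABA libraries in 15 (22.7%, background 47.5%). The shares of members that rose were above the background and the shares that fell were below it. This difference was not tested, nor was the part in it of the choice on 24 h values. After rescaling, 25 rose (37.9%, all genes tested 19.5%) and 4 fell (6.06%, all genes tested 10.8%), and the 25 held all of the 15 and the 4 were among the 8. Without ABA replicate 1, 8 rose (12.1%, all genes tested 8.79%) and 5 fell (7.58%, all genes tested 13.5%). Without ABA replicate 2, 6 rose (9.09%, all genes tested 7.88%) and 5 fell (7.58%, all genes tested 15.8%). The share of falls depended on the 24 h libraries: without 24 h replicate 2, 14 fell (21.2%), near the 22.3% of all genes tested, and 10 rose (15.2%, all genes tested 9.71%). Without 24 h replicate 1, 21 rose (31.8%, all genes tested 16.9%) and 6 fell (9.09%, all genes tested 24.4%). Of the 15 members that rose and the 8 that fell, 6 and 2 kept the wider call with every single library left out.

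LOC_Os01g11600 (plus strand, chr1:6257915-6258264) had the largest ABA change. It met the rule as deposited but not after rescaling, where its IAA rise was 0.44. It had 6.42 and 4.53 FPKM at 0 h, 4.74 and 7.22 FPKM at 8 h and 5.81 and 5.74 FPKM at 24 h. With ABA it had 23.6 and 17.4 FPKM and with IAA 9.08 and 9.25 FPKM. The time points overlapped, both hormones stood above them, and ABA stood above IAA. The level with ABA was 1.65 higher than at 24 h on the log2 scale (SE 0.177, limma adjusted p = 2.61e-05) and 1.63 higher than at 8 h (SE 0.177, limma adjusted p = 4.97e-06). It was the only member that rose more with ABA than with IAA, for which the difference was 0.59.

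LOC_Os01g12920 (plus strand, chr1:7176107-7177066) was high with both hormones. It met the rule as deposited but not after rescaling, where its change from 8 to 24 h was 0.61. It had 3.06 and 3.34 FPKM at 0 h, 3.14 and 4.56 FPKM at 8 h and 6.98 and 4.28 FPKM at 24 h. It had 14.0 and 12.8 FPKM with ABA and 17.2 and 12.8 FPKM with IAA. The ABA and IAA libraries overlapped, and all 4 lay above the 6 others. ABA was 1.15 above 24 h on the log2 scale (SE 0.189, limma adjusted p = 8.85e-04) and 1.59 above 8 h (SE 0.189, limma adjusted p = 1.10e-05). The replicates at 24 h were far apart for this gene, and without 24 h replicate 2 the ABA change was 0.85, under the 2-fold limit. Without ABA replicate 1 it was 1.09 with a limma adjusted p of 0.0108, so the stricter call was lost there as well.

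Several members passed the wider call with smaller rises. Of the 15 members that rose from 24 h, 9 also passed the wider call as higher than at 8 h. All 8 that fell from 24 h also passed it as lower than at 8 h. Both contrasts use the same ABA libraries, and all 8 had a lower level at 24 h than at 8 h. For these 8, the call against 24 h thus largely fixed that against 8 h. Of all genes tested, 17.9% passed as higher than at 8 h and 54.5% as lower. The share that passed both calls was not counted over all genes tested, so nothing is read from the 9 or the 8. LOC_Os01g28500, the member with the largest IAA rise, was 0.52 higher with ABA than at 24 h (SE 0.0900, limma adjusted p = 0.00133) and 0.30 higher than at 8 h. LOC_Os01g07200, which was level through 8 h, had 15.3 and 14.8 FPKM at 0 h, 15.04 and 14.8 FPKM at 8 h, 11.9 and 10.9 FPKM at 24 h, 16.7 and 16.6 FPKM with ABA and 20.6 and 20.4 FPKM with IAA. Its replicates were close in every condition, and the ABA rise of 0.51 passed (SE 0.0665, limma adjusted p = 1.44e-04), while the difference from 8 h was 0.15. LOC_Os01g28030 and LOC_Os01g14110 rose by 0.54 and 0.51 with ABA, and their IAA and ABA levels differed by 0.08 and 0.01. The call of LOC_Os01g14110 was lost without ABA replicate 2 (limma adjusted p = 0.0765) or 24 h replicate 1 (limma adjusted p = 0.0548). OsbZIP1 was 0.36 higher with ABA than at 24 h (SE 0.133, limma adjusted p = 0.0483) and -0.11 from the 8 h level, a difference that changed sign to 0.15 after rescaling. Its wider call against 24 h was kept in 1 of the 10 cases with a library left out: without 24 h replicate 2 the change was 0.14 (limma adjusted p = 0.394) and without 24 h replicate 1 it was 0.59 (limma adjusted p = 0.00207), and the limma adjusted p was 0.132 and 0.155 without ABA replicates 1 and 2. The abundant LOC_Os01g11240, LOC_Os01g05080 and LOC_Os01g10950 rose by 0.34, 0.21 and 0.20 from 24 h. Their differences from 8 h were 0.003, -0.09 and 0.28. The calls of LOC_Os01g05080 and LOC_Os01g10950 were lost without either ABA library, and that of LOC_Os01g05080 also without 24 h replicate 2, where the change was 0.11.

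Of the 8 members that fell with ABA, 4 did so after rescaling. LOC_Os01g12640 (minus strand, chr1:6957017-6958745) had the largest fall, and it was named after its values were seen. It had 12.4 and 11.6 FPKM at 0 h, 9.04 and 8.19 FPKM at 8 h, 7.71 and 5.50 FPKM at 24 h, 3.89 and 3.91 FPKM with ABA and 11.1 and 8.89 FPKM with IAA. The ABA libraries lay below every other library. The change with ABA was -0.62 from 24 h (SE 0.132, limma adjusted p = 0.00436) and -0.97 from 8 h (SE 0.132, limma adjusted p = 3.50e-05). Without 24 h replicate 1 the change from 24 h was -0.41, and its call was kept with every library left out. LOC_Os01g20950 fell by 0.57 on the log2 scale, from 0.826 and 0.728 FPKM at 24 h to 0.0719 and 0.335 FPKM with ABA, levels at which few fragments may lie behind a value. LOC_Os01g16450, among the 10 largest IAA rises, was 8.04 and 7.59 FPKM at 24 h and 6.45 and 6.01 FPKM with ABA, a change of -0.29 (SE 0.0869, limma adjusted p = 0.0230). This call was lost without either ABA library or 24 h replicate 1 and after rescaling, where the change was -0.18, and that of LOC_Os01g20950 was lost without ABA replicate 1 (-0.41, limma adjusted p = 0.110).

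**Figure D4:**
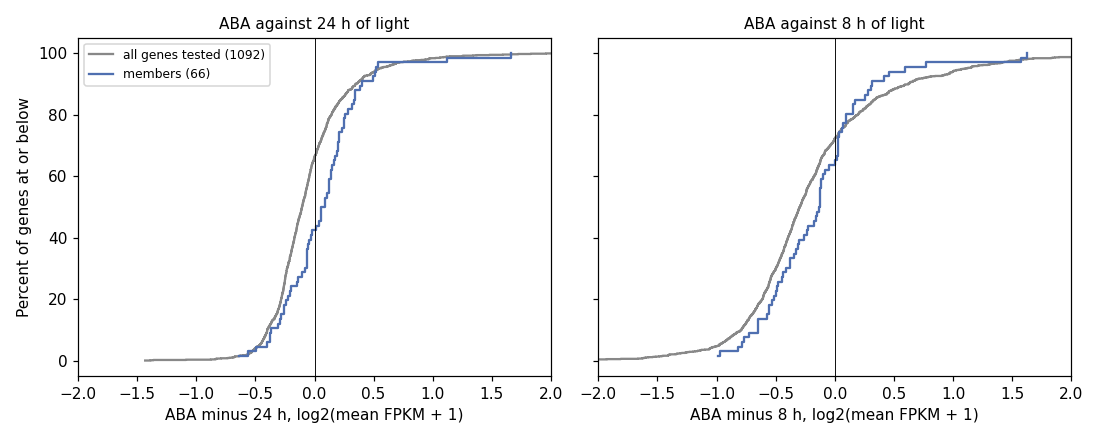
Cumulative share of genes against the change with ABA in log2(mean FPKM + 1), from 24 h (left) and from 8 h (right), for the 66 members and the 1092 genes tested. The members' curve lies to the right of the other in the middle of both panels, with medians of 0.07 against -0.11 from 24 h and -0.13 against -0.30 from 8 h.

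Against 8 h, the median change of the members with ABA was -0.13 and that of all genes tested -0.30. This contrast holds neither the 24 h nor the IAA libraries, but the 8 h libraries entered both steady limits of the rule. The genes tested include 505 that were not steady, and the part of this in the counts below was not tested. By the stricter call 2 members were higher (background 5.95%), LOC_Os01g11600 and LOC_Os01g12920, and 0 were lower (background 4.76%), with 12 (18.2%, background 18.7%) and 26 (39.4%, background 55.6%) members at an unadjusted p under 0.05 in those directions. With a limma adjusted p under 0.05 alone, 10 rose (15.2%, background 17.9%) and 25 fell (37.9%, background 54.5%). Rescaling turned the sign of the members' median, to 0.07, and gave 23 rises and 13 falls among the members and 325 and 312 among all genes tested. The share of rises with ABA was near the background in this contrast.

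The 24 h libraries were unequal for the members. Replicate 2 was below replicate 1 in 48 of the 66 (72.7%), against 56.4% of all genes tested, and the median difference between the replicates was -0.14 on the log2 scale in the members and -0.03 in all genes. The mean at 24 h chose the members, and the part of this inequality in the results was not tested. In the limma fit the median ABA change of the members from 24 h was 0.08 with all libraries. Without 24 h replicate 2 it was -7.35e-04 and stood 0.11 above that of all genes tested.

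Between the hormones, IAA gave the higher level in 65 of the 66 members, with a median difference of 0.65 on the log2 scale, against 0.21 over all genes tested. The stricter call gave 11 members higher with IAA (background 4.85%) and 1 lower, LOC_Os01g11600 (background 0.916%). With a limma adjusted p under 0.05 alone, 57 were higher (background 45.8%), 1 was lower (background 9.8%) and 8 were neither. Both IAA libraries lay above both ABA libraries in 61 members (background 62.5%). The IAA libraries chose the members, so these counts describe them and support nothing further. The 8 members that did not pass included LOC_Os01g12920, LOC_Os01g28030 and LOC_Os01g14110, in which the ABA level came near that of IAA.

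Members just inside the limits of the rule differed little from genes just outside. Just inside the IAA limit of 0.5 were LOC_Os01g09890 and LOC_Os01g20950, with rises of 0.503 and 0.504, and just outside were LOC_Os01g34620 and LOC_Os01g32330 with 0.496 and 0.493. For the step from 0 to 8 h, LOC_Os01g11650 and LOC_Os01g10950 were just inside the upper limit with 0.45 and 0.40, LOC_Os01g11230 and LOC_Os01g12220 just outside with 0.50 and 0.57, LOC_Os01g03090 and LOC_Os01g13460 just inside the lower limit with -0.49 and -0.48, and LOC_Os01g22990 and LOC_Os01g19410 just outside with -0.50 each. For the step from 8 to 24 h, LOC_Os01g08220 and LOC_Os01g12920 were just inside the upper limit with 0.45 each, LOC_Os01g22352 and LOC_Os01g02470 just outside with 0.51 and 0.65, LOC_Os01g08600 and LOC_Os01g07570 just inside the lower limit with -0.50 and -0.49, and LOC_Os01g06010 and LOC_Os01g15770 just outside with -0.51 and -0.52. With each library left out in turn, 23 of the 66 genes met the rule in every case. After rescaling 50 genes met it, of which 29 were among the 66, and of the 37 that were lost 35 had an IAA rise under 0.5. In all 14 genes met both demands, among them LOC_Os01g28500, LOC_Os01g16450, LOC_Os01g11240, LOC_Os01g08780 and LOC_Os01g07200, and also LOC_Os01g03080 and LOC_Os01g04620, which had passed the filter through IAA.

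The members spanned 321 to 15620 bp with a median of 2477.5 bp from gene start to end, and all genes tested had a median of 3591.5 bp. There were 37 members on the minus strand and 29 on the plus strand (56.1% minus, against 50.5% of all genes tested). A mean under 5 FPKM was found for 23 members (34.8%) and for 32.1% of all genes tested. In 4 cases 2 members were next to each other among the genes tested, all on the plus strand, namely LOC_Os01g03080 with LOC_Os01g03090, LOC_Os01g20910 with LOC_Os01g20930, LOC_Os01g21300 with LOC_Os01g21310 and LOC_Os01g19940 with LOC_Os01g19970. The gaps between the genes were 1235, 1514, 3004 and 30309 bp in that order. LOC_Os01g03090, LOC_Os01g08960 and LOC_Os01g24020 overlap a gene of the opposite strand, with mean levels of 2.37, 0.834 and 0.130 FPKM for the partner, and their values are uncertain because the strand setting of the FPKM values is not given in the sources used here.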

How the data were processed

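The authors trimmed the RNA-seq reads with seqtk, mapped them to the rice reference genome with Hisat2 and deposited FPKM values from Cufflinks. The unit was taken from the table's name and the methods, although the study also plots such values as TPM. The genome build and the strand setting of the FPKM values are not given in the sources used here, and the authors counted reads without strand. The IDs are MSU loci, while the cultivar is an indica.

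Of 2283 rows, 1 incomplete row was left out. Levels were compared as log2(FPKM + 1), without further scaling, where the mean reached 1 FPKM. All 10 libraries entered a single limma fit (version 3.58.1, R 4.3.3, trend) with Benjamini-Hochberg adjustment over the 1092 genes. On simulated data, 200 of 1092 genes were changed 3-fold for ABA against 24 h. The stricter call found 178 in the right direction and 0 of 892 unchanged genes. The noise was normal with the spread that the fit itself gave each gene, so this checks the steps alone. It does not cover the wider call or smaller changes. Python 3.11.15 served the other steps. Low values showed no step for a single read, so depth is unknown.

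The members, lists and tests were chosen with earlier results of these data known. The genes named are those the study names, the 10 with the largest IAA rise, those with a stricter ABA call, and the 2 on each side of each limit. Others were named after their values were seen (further ABA calls, the most abundant member, and LOC_Os01g36660). Lists by gene function (auxin, ABA, transcription factors, kinases and calcium), markers of green tissue and promoter motifs were planned, but 1 of 2282 IDs matched the RefSeq table, so these were not analysed here and the tissue was not checked against markers. Alternatives were median-of-ratios scaling, a pseudocount of 0.1, a mean of at least 5 FPKM, no filter, other limits of the rule, the mean of log2 values, the libraries of a comparison alone, a replicate block and each library left out.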

Additional observations from a re-analysis of the deposited data

How the results depend on the processing

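The number of genes that met the rule was 43 with a mean of at least 5 FPKM, 38 with a light limit of 0.4, 7 with an IAA limit of 1, and between 53 and 69 when each library was left out. With a pseudocount of 0.1, 1 member was called lower with ABA than at 24 h and 5 lower than at 8 h (10 and 92 of the 1092 genes tested), and IAA was above ABA by the stricter call in 19 and above 24 h in 13 (80 and 69 of the genes tested). With no filter on low values, 1 member was called higher with ABA than at 24 h, since LOC_Os01g12920 lost its call at a change of 1.15. With a mean of at least 5 FPKM, which leaves 43 members, IAA was higher than ABA by the stricter call in 5 and by the wider in 35, and higher than 24 h by the wider in 43. After median-of-ratios scaling the wider calls were 25 higher and 4 lower for ABA against 24 h and 23 and 13 against 8 h, IAA was above ABA by the stricter call in 3 (27 of the genes tested), and OsbZIP1 (LOC_Os01g07880) reversed to 0.15 for ABA against 8 h. With the libraries of ABA and 24 h alone the wider calls were 8 higher and 3 lower (100 and 152 of the genes tested), and OsbZIP1 lost its wider call (limma adjusted p = 0.110), as it did with no filter (0.138). The cause of these differences was not tested, apart from the fewer members tested at 5 FPKM.

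With each library left out, the stricter calls for ABA against 24 h were between 1 and 2 higher and 0 lower, and the wider calls between 6 and 21 higher and between 5 and 14 lower. Against 8 h they were 2 higher and between 0 and 1 lower, and the wider calls between 7 and 11 higher and between 18 and 26 lower. For IAA against ABA the stricter calls were between 10 and 12 higher and between 0 and 1 lower (0 without ABA replicate 1), and the wider between 53 and 61 higher. For IAA against 24 h the stricter calls were between 3 (without 24 h replicate 2) and 12 (without 24 h replicate 1), and the wider between 57 and 66. Where this left 1 library in a condition, it was assumed to vary like the others. With all libraries, the wider calls for ABA against 24 h held for 12.5% (higher) and 26.6% (lower) of all genes tested. Against 8 h they held for 17.9% and 54.5%. For IAA they held for 45.8% as higher than ABA and 38.1% as higher than 24 h. Nothing particular to the members is read from these ranges. The LOC_Os01g12920 change with ABA from 24 h was between 0.85 and 1.45. The stricter call with an adjusted p under 0.05 in place of 0.01 changed no count by more than 1.5 times.

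The replicate differences of the conditions correlated between -0.065 and 0.109, so no shift shared by libraries of the same replicate number was seen. The sources used here do not say if libraries of the same number were handled together. With the replicate number as a block, 15 members rose with ABA from 24 h by the wider call (22.7%, all genes tested 13.2%). Another 11 fell (16.7%, all genes tested 27.3%). The stricter calls were 2 and 0 (18 and 4 of all genes tested). Against 8 h the block gave 9 and 26 by the wider call, and 2 and 0 by the stricter (65 and 52 of all genes tested). Without the block, the wider call against 8 h held for 17.9% and 54.5% of all genes tested.

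The unknown depth, 2 libraries a condition and the scaling limit these results. The median of all genes tested was -0.38 from 0 to 24 h on the log2 scale as deposited, and whether transcript levels fell or the totals differ cannot be told apart.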
